A study of Rattus norvegicus with 12 samples.

Results

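The 10 genes described here encode feedback inhibitors of the ERK pathway and a pair of ETS transcription factors that ERK signalling acts on. They are 4 dual-specificity phosphatases (Dusp1, Dusp4, Dusp5 and Dusp6), 4 Sprouty-type adaptors (Spry1, Spry2, Spry4 and Spred1), and Elk1 and Etv5. They are 10 of the 17339 gene symbols in the deposited table of all libraries. Each is listed there as 1 entry, and all 10 were above the filter on low values. The genes were picked by name, but the list was drawn up with earlier results of these data in view. Elk1 in particular was chosen by its rise with tetrodotoxin in wild-type cultures, so its values in that comparison are given as a description. The knockdown cultures are other libraries, but their values were also among the data already known, so the test of Elk1 there is not independent of the choice of genes.

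The study measured RNA in 12 libraries of primary cortical neuron cultures from Wistar rats at embryonic day 18, with 3 libraries in each of 4 groups. Wild-type and Ehmt1 knockdown cultures were each left untreated or given tetrodotoxin (TTX). TTX stops action potentials by closing off sodium channels, and Ehmt1 encodes a histone lysine methyltransferase lowered here by a short hairpin RNA. The title names homeostatic synaptic scaling, the adjustment of synapses to a lasting change in activity. The sources used here give neither the dose and duration of TTX nor a control hairpin for the wild-type groups. Hairpin delivery therefore cannot be told apart from the loss of Ehmt1.

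ERK is the last kinase of a cascade that runs from receptor tyrosine kinases and calcium entry through Ras, RAF and MEK. In neurons it carries signals from neurotrophins and synaptic activity to the nucleus, where ERK phosphorylates Elk1, the partner of serum response factor (SRF) at promoters of immediate early genes. Many inhibitors of the cascade are themselves induced by it: the phosphatases remove the activating phosphates from ERK and related kinases, and Sprouty and Spred proteins act upstream on Ras and RAF.

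Promoter sequence is shown for 3 of the genes, Elk1 because it had the largest TTX difference of the 10 and Dusp5 and Dusp1 because they were lower with TTX in all 6 cultures. The sequences are the 250 bases before the annotated start in RefSeq's GRCr8 rat assembly, 5′ to 3′ on the strand of the gene, and they were read with these results known. Elk1 lies at chrX:3693115-3693364 on the plus strand, Dusp5 at chr1:262543524-262543773 on the plus strand, and Dusp1 at chr10:17184603-17184852 on the plus strand. Capitals mark matches to 4 motifs searched on both strands: the cAMP response element (CRE) TGACGTCA, its half-site TGACG, the ETS site CCGGAA and the CArG box, the element that SRF binds.

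Elk1: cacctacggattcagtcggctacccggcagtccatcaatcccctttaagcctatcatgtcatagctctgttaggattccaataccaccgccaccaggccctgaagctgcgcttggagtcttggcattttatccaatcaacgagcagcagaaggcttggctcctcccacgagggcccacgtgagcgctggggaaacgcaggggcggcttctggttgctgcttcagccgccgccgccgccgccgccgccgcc

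Dusp5: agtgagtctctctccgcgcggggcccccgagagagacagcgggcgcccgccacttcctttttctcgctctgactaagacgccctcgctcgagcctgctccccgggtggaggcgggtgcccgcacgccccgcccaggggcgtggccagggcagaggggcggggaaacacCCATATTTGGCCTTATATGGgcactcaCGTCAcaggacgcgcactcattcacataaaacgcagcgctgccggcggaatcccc

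Dusp1: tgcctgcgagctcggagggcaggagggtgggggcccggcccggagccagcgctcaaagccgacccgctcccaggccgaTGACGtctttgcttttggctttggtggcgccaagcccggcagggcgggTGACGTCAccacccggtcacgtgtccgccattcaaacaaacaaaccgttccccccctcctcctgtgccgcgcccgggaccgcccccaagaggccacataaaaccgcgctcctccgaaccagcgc

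The Dusp5 window held 2 adjacent CArG boxes, at 82 to 73 and 72 to 63 bases before the start, and a CRE half-site at 55 to 51. Dusp1 had a full CRE at 124 to 117 bases before the start, in which half-sites overlap on both strands, and a further half-site at 172 to 168. The Elk1 window held none of the 4 motifs. Of 33469 rat promoter windows of the same length, 1.5% held a CArG box, 0.0209% (7 windows) held 2 or more, 1.59% held a CRE, 18.2% a half-site and 12.6% the ETS site. Among the other genes with a window, Spry2 had a half-site and an ETS site in 1 of its 2 windows, and Spry4 had an ETS site. Dusp6, Spry1, Spred1 and Etv5 had none, and no window was used for Dusp4. A match describes the letters only and is no measure of binding.

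Levels are given in read equivalents, the deposited coverage of a transcript divided by a read length of 42 nt after the authors' size factors. They are not per length, so they are compared between libraries and not between genes. Libraries held 15108848 to 24787516 read equivalents before scaling. Libraries of the same genotype and replicate number deviated together, and each such pair is called a culture here, although the labels do not state that the pair came from the same dissection. Ehmt1 itself averaged 1762 ± 127 (SD, n = 3 cultures) in wild-type and 1247 ± 242 in knockdown cultures, 70.8% of wild-type. By culture, Ehmt1 averaged 1905, 1663 and 1719 in wild-type and 1116, 1527 and 1099 in knockdown. Knockdown culture 2 was thus lowered least and lay near the lowest wild-type culture. All 3 knockdown cultures were below all 3 wild-type cultures, and an exact two-sided permutation test gave p = 0.1, the smallest that 3 against 3 allows. On culture averages its adjusted p was 0.773 (limma).

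**Figure D1:**
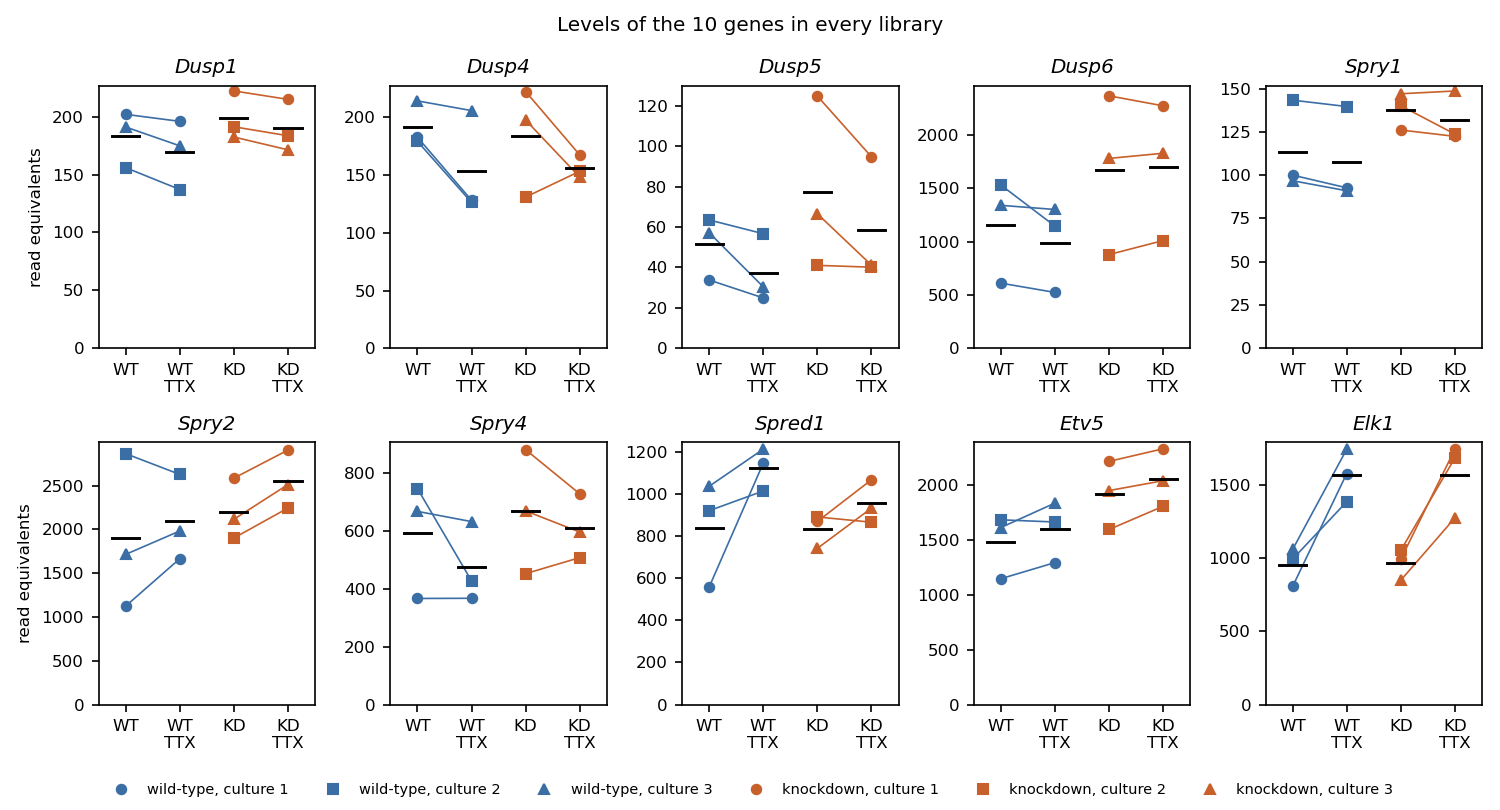
Levels of the 10 genes in read equivalents (linear axes from 0) in every library. Lines join the untreated and TTX libraries of a culture, symbols give the replicate number, and black bars are group means (n = 3). In the Elk1 panel every line rises, and its 6 TTX libraries (1277 to 1748) lie above its 6 untreated ones (808 to 1061). In the Dusp6 panel the cultures range from 567 to 2320.3 on average, a wider span than between the ends of any line.

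Elk1 RNA was higher with TTX in all 6 cultures. In wild-type cultures it stood at 808, 995 and 1061 read equivalents untreated and at 1580.4, 1388 and 1747 with TTX, in replicate order. In knockdown cultures the untreated libraries read 995, 1056 and 851, and the TTX libraries 1748, 1687 and 1277. The lowest TTX library was above the highest untreated library in the whole series. Over the 12073 genes tested, 31 (0.257%) had all 6 TTX libraries above all 6 untreated ones, and of the 10 genes Elk1 did. This count includes the wild-type libraries that chose Elk1, so nothing is read from it.

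The means for Elk1 were 955 ± 131 (SD, n = 3) untreated and 1572 ± 180 with TTX in wild-type cultures, a 1.65-fold difference (log2 0.72, SE 0.105). In knockdown cultures, 967 ± 105 compared with 1571 ± 256, a 1.61-fold difference (log2 0.69, SE 0.105, 95% interval 0.44 to 0.95). With culture as a term this knockdown comparison had an adjusted p of 0.0537 (limma, Benjamini-Hochberg over all genes), just outside the threshold of 0.05. A random block for culture gave 0.00838 and groups alone gave 0.633, so the call depends on how the pairing is treated. The difference between the genotypes in the TTX change was -0.03 (SE 0.149, 95% interval -0.39 to 0.33, adjusted p = 0.99).

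The wild-type difference that chose Elk1 had an adjusted p of 0.0309 with culture as a term, given as a description, and 0.463 with groups alone. Averaged over both genotypes, which includes those libraries, the Elk1 change was 1.63-fold (log2 0.71, SE 0.0744, adjusted p = 0.00671, and 0.0514 with groups alone). By culture the log2 change was 0.97, 0.48 and 0.72 in wild-type and 0.81, 0.68 and 0.59 in knockdown. The smallest and the largest rise were both in wild-type cultures, 2 and 1. The nearest genes on either side of Elk1 in the reference did not pass averaged over genotypes. For Uxt, a prefoldin-like protein gene, the log2 value was 0.11 (SE 0.0593, adjusted p = 0.276), and for Cfp, which encodes properdin of complement, it was 0.12 (SE 0.0601, adjusted p = 0.231).

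Cell type markers moved with TTX as well. For comparison, 13.0% of all genes tested passed averaged over genotypes and 55.5% were higher. Of 9 neuron markers, 9 were lower with TTX averaged over genotypes and 6 passed, among them Gad1 (log2 -0.99, adjusted p = 0.0106), which makes GABA, and Snap25 (-0.61, adjusted p = 0.0095), a vesicle fusion protein. Their summed level ran from 59461 to 96835 in untreated libraries and from 49834 to 78325 with TTX. Of 7 progenitor and cell cycle markers, 7 were higher and 4 passed, led in size by Mki67 (log2 0.52, adjusted p = 0.019). The 4 were the cell cycle genes Mki67, Top2a, Cdk1 and Ccnb1, and no progenitor gene of the list passed. The sum of the 7 ran from 9954.9 to 15554 untreated and from 13558 to 19214 with TTX. Of 8 astrocyte markers 7 were higher and none passed, with sums of 84683 to 132360 untreated and 91984 to 153280 with TTX. Of 8 oligodendrocyte-lineage markers 7 were higher and 1 passed, Olig1 (log2 0.30, adjusted p = 0.0369), with sums of 22284 to 41548 untreated and 28164 to 55982 with TTX. By genotype, 7 of the 8 were higher in wild-type (median 0.24) and 4 in knockdown cultures (median -0.04). Of 8 microglial markers only 3 were above the filter, all higher averaged over genotypes and none passed (median 0.56), with sums of 13.3 to 118 untreated and 12.5 to 147 with TTX. The genotypes differed, with 3 of the 3 higher in wild-type (median 1.4) and 0 in knockdown cultures (median -0.23). Of 5 vascular markers 2 were above the filter, 1 of them higher, and none passed. With groups alone 0 of the 11 marker genes that passed did so. The part of these shifts in the results on the 10 genes was not tested. In bulk RNA, fewer cells of a type and less RNA per cell cannot be told apart.

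Etv5, an ETS factor of the Pea3 group that FGF and ERK signals induce, differed little with TTX. Untreated wild-type libraries read 1148, 1685 and 1615, and the TTX libraries 1295, 1665 and 1838. In knockdown cultures the untreated libraries read 2218, 1597 and 1952, and the TTX libraries 2333, 1808 and 2041. Etv5 was higher with TTX in 5 of 6 cultures, but the averaged change was 1.08-fold (log2 0.11, SE 0.0511, adjusted p = 0.205) and the groups overlapped.

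**Figure D2:**
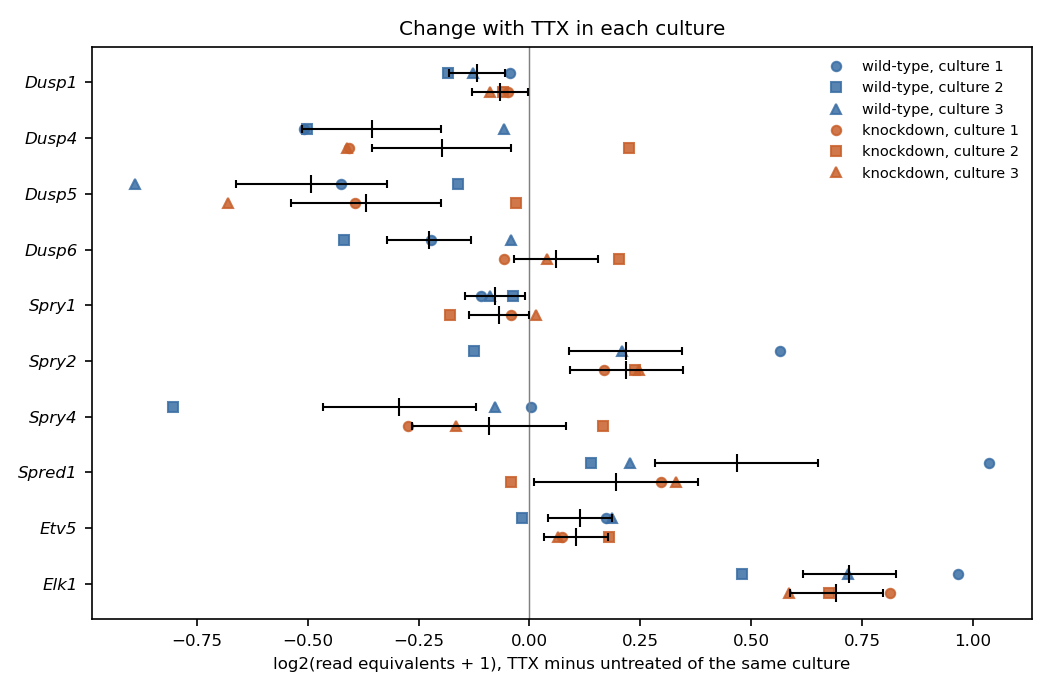
Change with TTX within each culture, as the difference of log2(read equivalents + 1) between the TTX and untreated libraries. Coloured symbols are cultures, and black ticks with bars are the limma estimate ± SE in each genotype (3 cultures each). Elk1 lies between 0.48 and 0.97, while Dusp1 and Dusp5 are below 0 in all 6 cultures.

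In all, TTX gave 1 called gene of the 10 in wild-type cultures, Elk1, where 3.18% of all genes tested were called. It gave 0 of 10 in knockdown cultures, where 0.514% were called, and 1 of 10 averaged over genotypes, again Elk1, where 13.0% were called. Elk1 was chosen by its wild-type rise, and the average includes those libraries. The wild-type and averaged counts are therefore a description, and no excess is read from them. At an unadjusted p under 0.05 the wild-type comparison held 3 of the 10 (Dusp5, Spred1 and Elk1), against 23.8% of all genes. The knockdown comparison held 1, Elk1, against 18.2% of all genes. Neither count is read as a result about these genes. The median log2 change of the 10 was -0.08 averaged over genotypes, against 0.02 over all genes. Under groups alone, none of the 10 passed in any TTX comparison.

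The 4 phosphatase genes had negative averaged TTX changes, none of which passed. Dusp5, a nuclear phosphatase specific to ERK, showed the largest. Wild-type libraries read 33.8, 63.5 and 57.2 untreated and 24.9, 56.7 and 30.4 with TTX. Knockdown libraries read 125, 41.0 and 66.6 untreated and 94.8, 40.1 and 41.2 with TTX. Each culture was lower with TTX, by between 0.03 and 0.89 on the log2 scale, but the groups overlapped widely because the cultures started from different levels. The averaged change was -0.43 (SE 0.121, adjusted p = 0.0658), 1.35-fold lower. Of 16 alternatives run for this comparison, Dusp5 passed in 1, the filter on low values raised to 50 read equivalents (adjusted p = 0.0389). Its adjusted p was 0.0937 with a random block for culture and 0.758 with groups alone. The reference also lists an uncharacterised locus overlapping Dusp5, and the sources used here do not say whether the authors' counting used the strand.

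Dusp1, a nuclear phosphatase of MAP kinases and an immediate early gene itself, was lower in 6 of 6 cultures by a small amount. Wild-type libraries read 202, 156 and 191 untreated and 196, 137 and 175 with TTX. In knockdown cultures the readings were 222, 191 and 182 untreated and 215, 184 and 171 with TTX. The changes were similar from culture to culture, and their average was -0.09 (SE 0.0446, adjusted p = 0.222). Of all genes tested, 11.7% were lower in 6 of 6 cultures and 11.8% higher, so 2 of 10 lower (Dusp1 and Dusp5) and 1 of 10 higher (Elk1) are not read as a result about these genes.

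Dusp4, a nuclear phosphatase that also acts on ERK, was lower with TTX in 5 of 6 cultures. It read 183, 179 and 214 in untreated wild-type libraries against 128, 126 and 206 with TTX. In knockdown cultures it read 222, 131 and 198 untreated and 167, 153 and 148 with TTX, where culture 2 was higher with TTX. The averaged change was -0.28 (SE 0.111, unadjusted p = 0.0453, adjusted p = 0.154).

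Dusp6, the cytoplasmic phosphatase specific to ERK, was lower with TTX in 4 of 6 cultures and higher in 2, and it spread widely between cultures. Wild-type libraries read 611, 1530.4 and 1340.3 untreated and 524, 1145 and 1301 with TTX. Knockdown libraries read 2367, 879 and 1780.4 untreated and 2273, 1010.3 and 1829 with TTX. Dusp6 was lower in 3 of 3 wild-type cultures (log2 -0.23, SE 0.0947, adjusted p = 0.213) and higher in 2 of 3 knockdown cultures (log2 0.06, adjusted p = 0.796). The difference between those changes was 0.29 (SE 0.134, 95% interval -0.04 to 0.61, adjusted p = 0.974) and did not pass. None of the 10 passed this interaction, nor did any gene (0%), with 455 genes and none of the 10 at an unadjusted p under 0.05.

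Among the adaptors, which act on Ras and RAF below receptor kinases, no TTX change passed. Spry2 was higher in 5 of 6 cultures. It read 1125, 2865 and 1715 in untreated wild-type libraries and 1666, 2628 and 1982 with TTX, and 2586, 1902 and 2116 in untreated knockdown libraries against 2906, 2244 and 2513 with TTX. The averaged Spry2 change was 0.22 (SE 0.0901, adjusted p = 0.164). The wild-type libraries spread more than the change itself.

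Spred1 encodes a protein that brings neurofibromin, a Ras GTPase activator, to the membrane. It read 559, 922 and 1038 in untreated wild-type libraries and 1148, 1016 and 1215 with TTX. In knockdown cultures it read 871, 892 and 743 untreated and 1069, 867 and 934 with TTX. Much of the wild-type difference came from culture 1, whose log2 change was 1.04 against 0.14 and 0.23 in the others. The wild-type change was 0.47 (SE 0.184, adjusted p = 0.194) and was 0.18 without culture 1. A pseudogene, Eno1-ps25, overlaps Spred1 in the reference.

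Spry4 was higher with TTX in 2 of 6 cultures. It read 366, 745 and 666 in untreated wild-type libraries and 366, 426 and 631 with TTX, and in knockdown cultures 879, 451 and 668 untreated against 727, 507 and 595. The averaged change was -0.19 (SE 0.122, adjusted p = 0.336), and wild-type culture 2 alone fell by 0.80 on the log2 scale. Spry1 read from 91.0 to 149 over the 12 libraries, with an averaged change of -0.07 (SE 0.0479, 95% interval -0.19 to 0.04, adjusted p = 0.348). Its highest and lowest libraries were in different genotypes, knockdown and wild-type.

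No member passed a comparison of knockdown with wild-type cultures. The called share of all genes was 0% in untreated cultures, 0% in TTX and 0% averaged over treatments. At an unadjusted p under 0.05 these held 736, 986 and 735 genes, and 0 of the 10 in each. With groups alone, 3 genes and none of the 10 passed averaged over treatments. Of the 10, 9 were higher in knockdown untreated and 8 in TTX, with medians of 0.24 and 0.31 on the log2 scale against 0.01 and -0.0032 over all genes, of which 51.6% and 49.6% were higher. Neuron markers were higher in 7 of 9 untreated and 9 of 9 in TTX (medians 0.30 and 0.39). Oligodendrocyte-lineage markers were higher in 2 of 8 untreated and 2 of 8 in TTX (medians -1.09 and -1.23, highest values 0.53 and 0.45). The 3 microglial markers tested had medians of -0.79 and -3.00. Among them, Aif1 and C1qa reached 10 read equivalents in wild-type libraries only. The filter kept these genes through the wild-type libraries, so nothing is read from their lower knockdown values. No neuron, oligodendrocyte-lineage or microglial marker passed, and the part of these markers in the members' values was not tested. The same 6 cultures underlie the counts of members and of markers. None of the 10 had all 6 knockdown libraries on the same side of all 6 wild-type libraries, against 1.89% of all genes.

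The largest mean difference was in Dusp6. Its culture averages were 567, 1338 and 1321 in wild-type and 2320.3, 945 and 1805 in knockdown, and knockdown culture 2 lay below 2 of the wild-type cultures. The averaged change was 1.58-fold (log2 0.66, SE 0.454, adjusted p = 0.779). Etv5 came closest to a separation of the genotypes, with culture averages of 1221, 1675 and 1726 in wild-type and 2275, 1702 and 1997 in knockdown. Its change was 1.30-fold (log2 0.38, SE 0.19, adjusted p = 0.773). In the authors' deposited table the comparison of 6 against 6 libraries gave Etv5 a z of 2.51 and p = 0.006054, and Dusp6 p = 0.02937. That table does not say whether its p is adjusted, and it set 6 libraries against 6 although each culture supplied 2. If unadjusted, Benjamini-Hochberg over its entries gave 0.107 for Etv5 and 0.248 for Dusp6.

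For Dusp5 the knockdown average was 68.1 ± 36.7 (SD, n = 3 cultures) and the wild-type average 44.4 ± 15.4. Spry1 averaged 135 ± 12.0 in knockdown and 111 ± 26.8 in wild-type cultures, and Spry4 averaged 638 ± 162 and 533 ± 148. The corresponding averages were 2378 ± 341 and 1997 ± 688 for Spry2 and 194 ± 21.7 and 176 ± 26.9 for Dusp1. Each of these differences was within the spread of the cultures. Elk1 averaged 1269 ± 177 in knockdown and 1263 ± 122 in wild-type cultures (log2 0.01, 95% interval -0.36 to 0.38). Dusp4 (170 ± 26.5 and 173 ± 32.3) and Spred1 (896 ± 67.2 and 983 ± 137) were also close, with adjusted p of 0.986 and 0.891.

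**Figure D3:**
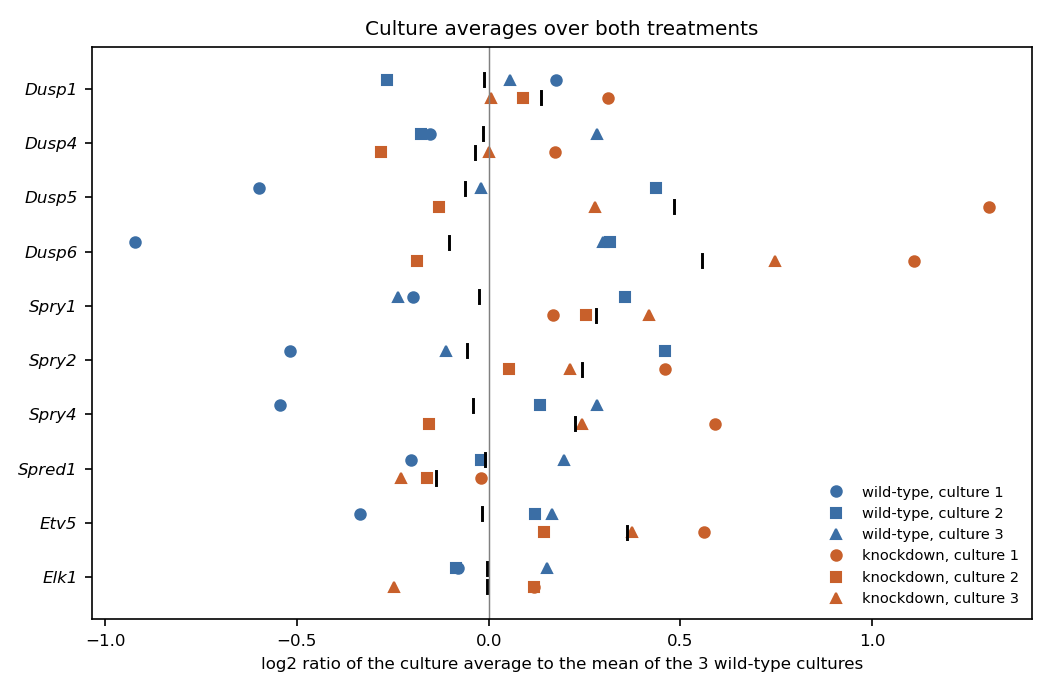
Average of the 2 libraries of each culture, as the log2 ratio to the mean of the 3 wild-type cultures. Symbols are cultures and black ticks the mean of the log2 ratios in each genotype. Dusp6 and Dusp5 spread most, with wild-type culture 1 lowest and knockdown culture 1 highest, and the genotypes overlap for every gene.

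The spread between cultures followed the same libraries for several genes. Between the highest and lowest culture Dusp6 differed 4.09-fold, Dusp5 3.74-fold, Spry4 2.19-fold, Spry2 1.97-fold and Etv5 1.86-fold, while Elk1 differed 1.32-fold. The median over all genes tested was 1.52-fold, and 6.05% of genes exceeded Dusp6. Wild-type culture 1 was lowest for Dusp5, Dusp6, Spry2, Spry4 and Etv5. Knockdown culture 1 was highest for Dusp1, Dusp5, Dusp6, Spry4 and Etv5. Knockdown culture 1 also stood apart in cell type markers. Its 8 oligodendrocyte-lineage markers summed to 22284 and 28164 read equivalents, against 31694 to 55982 in the other 10 libraries. Its vascular markers summed to 214 and 253, against 560 to 1226, but most of that was 1 gene, Pdgfrb (175 and 205). Pecam1, the other vascular marker above the filter, was instead highest in this culture (36.1 and 38.4). The neuron markers of knockdown culture 1 summed to 96835 untreated, the highest of the 12 libraries. Without this culture the averaged knockdown change was 0.39 for Dusp6, 0.14 for Dusp5 and 0.28 for Etv5 on the log2 scale. Without wild-type culture 1 it was 0.26 for Dusp6, 0.29 for Dusp5 and 0.22 for Etv5. Microglial markers summed to between 12.5 and 147 in all libraries. C1qa was at 0 in all 6 knockdown libraries and at 0 to 35.7 in the wild-type libraries. The part of cell makeup in the spread was not tested.

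**Figure D4:**
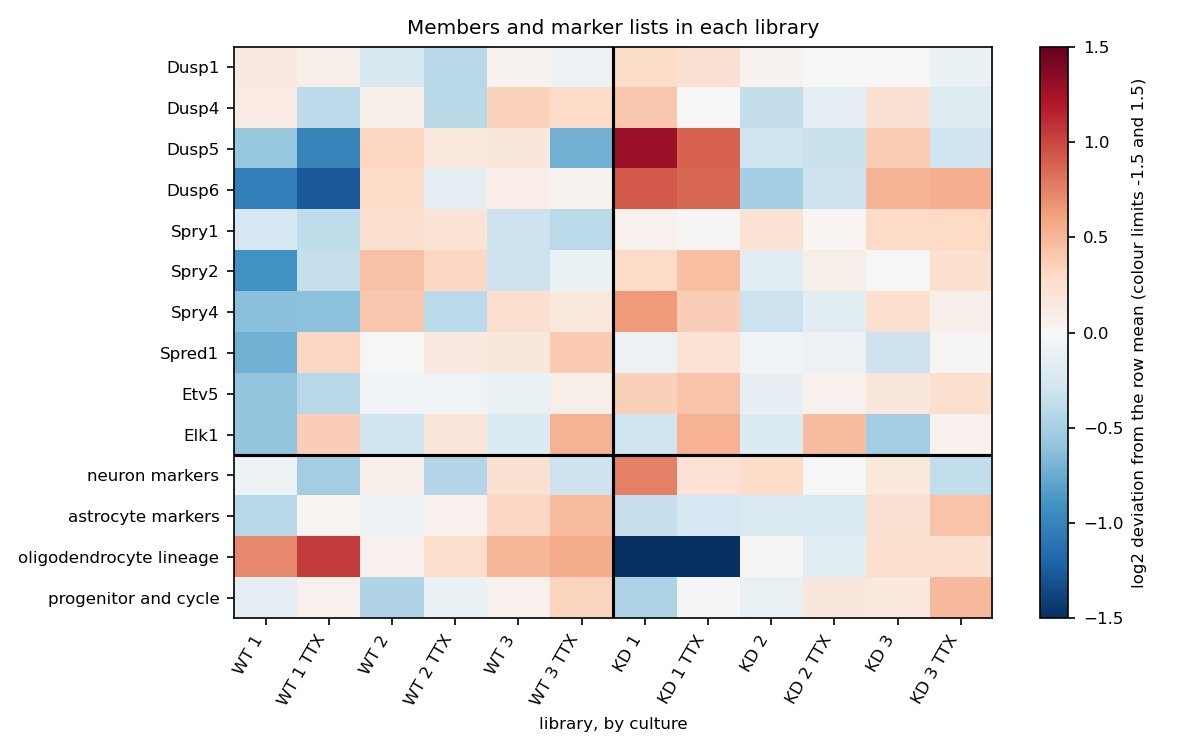
Deviation of each library from the row mean on the log2 scale, for the 10 genes and for the mean log2 level of 4 marker lists, with libraries ordered by culture. Colours stop at -1.5 and 1.5, beyond which the oligodendrocyte-lineage row of knockdown culture 1 lies. Elk1 alternates with treatment, while Dusp5, Dusp6, Spry4 and Etv5 change from culture to culture.

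The rest of the pathway was followed in lists chosen with earlier results known, averaged over genotypes, where 13.0% of all genes passed (660 higher and 910 lower). Of 11 other feedback genes tested, 5 passed, 4 of them lower: Dusp7 (log2 -0.36, adjusted p = 0.0202), a cytoplasmic ERK phosphatase, Spred3 (-0.51, adjusted p = 0.0239), Spry3 (-0.58, adjusted p = 0.0274) and Dusp8 (-0.23, adjusted p = 0.0417), a phosphatase of JNK and p38 named after its value was seen. Il17rd, an inhibitor of FGF signalling, rose (0.32, adjusted p = 0.0288). The list's median was -0.23. Of 7 other ETS factors and Srf, 2 rose, Etv4 (0.35, adjusted p = 0.0177), a Pea3-group relative of Etv5, and Elk3 (0.25, adjusted p = 0.0438), a relative of Elk1. Elk4, the third ternary complex factor, had 0.07 and Srf -0.03, and neither passed.

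Of 8 ligand genes tested, 3 fell and none rose: Bdnf (log2 -0.75, adjusted p = 0.0305), the neurotrophin induced by activity, Nrg1 (-0.30, adjusted p = 0.0387) and Pdgfa (-0.28, adjusted p = 0.0148). Of 10 receptor kinases, all had positive values and 1 passed, Egfr (0.42, adjusted p = 0.0386). Rasgrf1, a calcium-dependent exchange factor that loads Ras with GTP, fell (-0.76, adjusted p = 0.0129) as the only call among 5 exchange factors. Of 17 core cascade genes Hras (-0.36, adjusted p = 0.0349) and Araf (-0.26, adjusted p = 0.0296) fell. None of 7 Ras GTPase activators, 7 effector kinases or 16 early target genes passed. Of the 16 early targets 14 had positive averaged values (median 0.07), with 6 of 16 higher in wild-type and 13 of 16 in knockdown cultures. Towards the ends of that list, Fos had 0.32 (adjusted p = 0.104), Egr1 0.32 (adjusted p = 0.273) and Nr4a1 -0.25 (adjusted p = 0.353). In these lists 14 of 88 pathway genes tested beyond the 10 passed with culture as a term, a share near the 13.0% of all genes, with 12 of the 14 passing under a random block and 0 under groups alone (adjusted p from 0.213 to 0.727). The Pdgfra receptor is also an oligodendrocyte precursor marker, and it was counted in both lists.

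**Figure D5:**
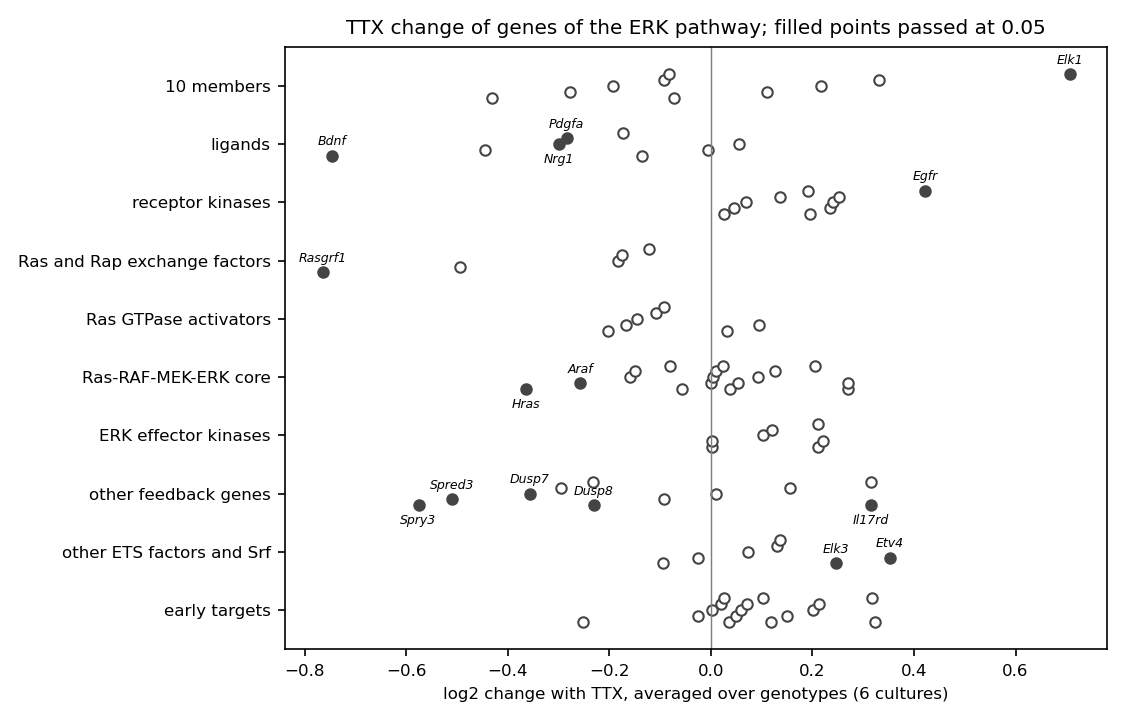
Averaged log2 change with TTX for the 10 genes and the other tested genes of the pathway lists (6 cultures). Filled, named points had an adjusted p under 0.05 over all genes, and points are offset vertically only to separate them. Elk1 lies at 0.71, Egfr at 0.42 and Etv4 at 0.35, with Rasgrf1 at -0.76 and Bdnf at -0.75 at the other end.

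The genes most like Elk1 over the 12 libraries, among 9958 with a mean of at least 100 read equivalents, were Elmsan1 (Pearson r 0.92), Sorcs1 (0.89) and Jag1 (0.89). These values describe libraries that share cultures and treatment. In the authors' deposited table, Elk1 had a z of 3.91 (p = 4.711e-05) for TTX in wild-type and 3.535 (p = 0.0002066) in knockdown cultures. If these p are unadjusted, Benjamini-Hochberg over all entries gave 0.0144 in wild-type and 0.0742 in knockdown. They come from the same libraries as the tests above, and the wild-type comparison chose Elk1, so they are no separate support. For TTX the other 9 genes had p from 0.08274, for Spred1 in wild-type, upward.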

How the data were processed

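RNA was measured in 12 libraries, 3 per group. Per the labels' protocols, ribosomal RNA was removed before dUTP-marked, strand-specific libraries were prepared and read from a single end. The submitters' processing notes name GSNAP, DESeq, DESeq2 and the rn6 build. The deposited values are a coverage signal per RefSeq transcript divided by a size factor per library, as read from the values: all were whole multiples of a step per library (tolerance 0.02), and low values clustered at 42 times that step. The authors' deposited comparisons hold a signed score (z) and a p-value, with no statement of sidedness or adjustment.

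Values were divided by 42 to give read equivalents, which are not counts of fragments, so no count model was used. Of 18905 entries, 18697 were distinct, and each symbol was represented by its entry of highest mean. Testing was limited to genes that reached 10 read equivalents in 3 or more libraries, which kept 12073 and dropped 5266. limma 3.58.1 in R 4.3.3 was fitted to log2(read equivalents + 1), with Benjamini-Hochberg adjustment over all genes and a two-sided threshold of 0.05. Fold changes of low genes are understated on this scale. TTX contrasts and the interaction had culture as a term (4 residual degrees of freedom). Knockdown within a treatment used groups alone (8), and knockdown averaged used culture averages (4). Alternatives left out the block, made it random (correlation 0.714), or changed the scale, pseudocount, filter, normalization, variance model, entry or the cultures used.

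Replicate numbers were taken to pair libraries within a genotype, because the deviations from group means of same-numbered libraries correlated at 0.438, 0.613 and 0.849 in wild-type and 0.782, 0.695 and 0.767 in knockdown, and at 0.022 or less between genotypes. The labels do not state a shared culture. The weakest pair, wild-type 1, also differed in markers. Its microglial sum was 20.3 untreated and 98.9 with TTX, and its oligodendrocyte-lineage sum 41548 and 55982. This pair gave the largest rise of Elk1 (log2 0.97) and of Spred1 (1.04). Whether its 2 libraries share a culture was not tested. The design text calls the replicates biological. With culture as a term, the TTX and interaction p-values measure the spread of the TTX change from culture to culture. The p-values of averaged knockdown measure the spread between culture averages, and those within a treatment the spread between libraries of a group. Data were simulated for TTX in wild-type over 12073 genes. The fit with culture recovered 76% of genes changed by 1 on the log2 scale, with 7 false calls. It recovered 93% of those changed by 2, with 6 false calls. Groups alone recovered 57.5% and 85%, with 2 and 1 false calls. The members' fitted changes in that comparison were smaller, from -0.49 to 0.72. Changes of that size were not simulated, so these rates do not show how often they would be missed.

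The 10 genes, the pathway and marker lists and the motifs were chosen with earlier results of these data known. The naming rule took the 10 genes, Ehmt1, up to 4 genes per list past the threshold by smallest p, and the 3 genes most like Elk1. Other genes named (Dusp8, Elk4, Srf, Fos, Egr1, Nr4a1, Uxt, Cfp, Aif1, C1qa, Pdgfra, Pdgfrb and Pecam1) fall outside it and were chosen after their values were seen. Neighbours, overlapping genes and promoters came from RefSeq's GRCr8 tables, where all 10 symbols and 9 of 10 accessions matched. Coordinates on rn6 were not used here.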

Additional observations from a re-analysis of the deposited data

How the results depend on the processing

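Elk1 kept a positive TTX change in each genotype under every alternative run, but its calls moved. The count of the 10 genes called for TTX in wild-type was 1, and it was 0 with no replicate block (4 genes called in all, against 384), with values as deposited (24), with no filter (11) and with any culture left out (0 to 0, with 10 to 58 genes). The adjusted p of Elk1 there was 0.463, 0.0875 and 0.0769 in the first 3 and 0.0557 to 0.123 with a culture left out. For TTX in knockdown the count was 0, and it was 1 (Elk1) with a random replicate block (349 genes, against 62), a pseudocount of 5 (139), a filter of 50 (356) and a trended robust prior (648). With a culture left out it was 0 to 1, the 1 being without wild-type culture 1. Averaged over genotypes the count was 1, and it was 0 with no replicate block (24 genes, against 1570) and 2 with the filter of 50 (1974 genes, Dusp5 and Elk1), while it was 1 to 1 with any culture left out. Of all genes, those called for TTX in wild-type also numbered 730 with a random replicate block, 712 with the filter of 50 and 1114 with a trended robust prior. In knockdown cultures 0 were called with no replicate block, 11 with values as deposited, 5 with no filter and 0 to 180 with a culture left out. The averaged count was 772 with values as deposited, 760 with no filter, 2371 with a trended robust prior and 141 to 1576 with a culture left out. Leaving out a culture removes residual degrees of freedom, and the cause of the other moves was not tested.

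No member passed a knockdown or interaction comparison under any alternative. Among single values, 1040 kept direction and side of the threshold, 44 changed sign, 6 gained and 10 lost the call. None of the 44 was called. The interaction of Etv5 was 0.0317 under quantile normalization. For knockdown in TTX Elk1 was 0.0211 with equal totals, and averaged over treatments Elk1 was -0.0011 under quantile normalization and Dusp4 was 0.0166 and 0.0125 under quantile normalization and equal totals. With a culture left out, the values that could change sign ranged as follows on the log2 scale: for TTX in knockdown, Dusp6 -0.0098 to 0.12; for the interaction, Dusp4 -0.054 to 0.31, Dusp5 -0.075 to 0.29, Spry1 -0.032 to 0.065, Spry2 -0.17 to 0.18, Spry4 -0.054 to 0.35, Spred1 -0.44 to 0.012, Elk1 -0.15 to 0.092 and Etv5 -0.074 to 0.028; for knockdown in untreated cultures, Dusp4 -0.25 to 0.13, Spry2 -0.022 to 0.65, Spry4 -0.13 to 0.44, Spred1 -0.23 to 0.21 and Elk1 -0.093 to 0.11; for knockdown in TTX, Dusp4 -0.057 to 0.29 and Elk1 -0.095 to 0.13; for knockdown averaged over treatments, Dusp4 -0.12 to 0.14, Spred1 -0.23 to 0.017 and Elk1 -0.055 to 0.12. No scaling moved the median of all genes by over 0.1. At levels of 24.9 to 125 read equivalents, Dusp5 is the member that depth limits most.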
